A study of Sus scrofa with 8 samples.

Results

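Retinal astrocytes of pigs injected with an adeno-associated virus (AAV) fall, 4 weeks after injection, into nuclei in which the transcript of the chemokine CCL2 was captured and nuclei in which it was not. The 2 kinds were compared within the same retinas. Astrocyte nuclei were selected on measured counts, as barcodes with at least 2000 unique molecular identifiers (UMIs, each standing for 1 captured transcript), at least 1 UMI of PAX2, at least 2 of GFAP, at most 1 of RLBP1 and at most 2 summed over TRPM1, GRM6, GAD1, GAD2 and PTPRC. Of 388491 barcodes in the 8 retinas, 1261 passed, and 336 of these came from the 2 AAV week 4 retinas. A nucleus with at least 1 CCL2 UMI was called CCL2-positive, which held for 137 nuclei (98 in animal 7248 and 39 in animal 7249), and the other 199 were called CCL2-negative (127 and 72).

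The pigs (Sus scrofa) had received AAV2.7m8/CAG-GFP, a capsid variant of AAV2 that carries the gene of a green fluorescent protein behind the ubiquitous CAG promoter, at 5e11 vector genomes per eye, or vehicle, into the vitreous of both eyes. All animals, controls included, had been given Vitrase (a hyaluronidase) 2 weeks earlier and weekly methylprednisolone (a corticosteroid) from 2 days before dosing. The AAV week 4 group is the left eyes (OS) of animals 7248 and 7249, and Vehicle week 4 is the left eyes of 7250 and 7251. AAV week 2 is both eyes (OS and OD) of animal 7221 and Vehicle week 2 both eyes of animal 7222, so each week 2 group is 1 animal. The batch label of each retina is the name of its group and names no processing run. Batch and group thus cannot be told apart between groups. CCL2-positive and CCL2-negative nuclei of a retina, by contrast, share the animal and the 4 lanes of the droplet chip on which it was run. Each retina gave between 40389 and 55012 barcodes and between 121544835 and 173614051 UMIs. No barcode sequence was shared by any pair of gated nuclei in different lanes.

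CCL2 encodes the chemokine MCP-1, which is secreted and attracts monocytes and other cells that carry its receptor CCR2. Its gene is induced by cytokines such as TNF, interleukin-1 and interferon-gamma through transcription factors that include NF-kB and AP-1. Type I interferons act on genes with the interferon-stimulated response element (ISRE), and interferon-gamma acts on genes with the gamma-activated sequence (GAS) and induces IRF1, a transcription factor. Retinal astrocytes lie in the nerve fiber layer along the ganglion cell axons and the vessels, come from the optic nerve head, express PAX2 and GFAP, and are counted among the sources of cytokines in the inflamed retina.

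The 250 bases before the annotated start of CCL2 and of 2 genes described below, IDO1 and IRF1, are shown with the matches to motifs of these pathways. The sequences are from the RefSeq genome Sscrofa11.1, written 5′ to 3′ on the strand of the gene, with matches to the searched motifs in capitals.
CCL2, chr12:40800014-40800263, minus strand: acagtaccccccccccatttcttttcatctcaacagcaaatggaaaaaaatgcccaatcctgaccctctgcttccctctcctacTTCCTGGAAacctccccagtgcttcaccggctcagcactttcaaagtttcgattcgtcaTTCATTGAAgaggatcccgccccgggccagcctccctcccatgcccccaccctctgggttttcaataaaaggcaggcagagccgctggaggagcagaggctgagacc
IDO1, chr17:9245033-9245282, plus strand: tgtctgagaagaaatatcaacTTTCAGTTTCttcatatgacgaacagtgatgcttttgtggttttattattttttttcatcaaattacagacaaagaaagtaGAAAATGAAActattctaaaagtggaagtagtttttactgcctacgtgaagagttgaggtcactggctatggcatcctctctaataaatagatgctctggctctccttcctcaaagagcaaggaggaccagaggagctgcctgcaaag
IRF1, chr2:134783647-134783896, minus strand: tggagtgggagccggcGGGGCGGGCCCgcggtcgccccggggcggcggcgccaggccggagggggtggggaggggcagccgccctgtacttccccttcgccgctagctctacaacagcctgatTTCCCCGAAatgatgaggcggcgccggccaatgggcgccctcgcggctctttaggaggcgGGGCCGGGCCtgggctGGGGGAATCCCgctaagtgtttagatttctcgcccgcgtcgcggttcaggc
The window of CCL2 held 2 matches to the GAS letters (TTC, any 3 bases, GAA), 166 to 158 and 107 to 99 bases before the start. In IDO1 there were 2 matches to the ISRE letters (GAAA, any 2 bases, GAAA), 1 on each strand, at 229 to 220 and 148 to 139 bases. For IRF1 the search found 1 GAS match, 127 to 119 bases before the start, and 5 partly overlapping matches to the loose kappaB letters (GGG, any 5 bases, CC). Both strands of 19486 promoter windows of this length were searched: 6.11% held the GAS letters, 3.01% the ISRE letters, 59.3% the kappaB letters and 5.27% the AP-1 letters (TGA, any base, TCA). The windows of CCL2 and IDO1 held no kappaB match, and none of the 3 windows held an AP-1 match. The window of GBP1, searched as well but not printed, held none of the 4 motifs. Bases farther from the start were not searched.

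CCL2 was read in few UMIs per nucleus. Of the 137 positive nuclei, 69 had 1 CCL2 UMI, 30 had 2 and 38 had 3 or more, up to 8 in animal 7248 and up to 10 in animal 7249. The rule therefore cuts between 0 and 1 UMI, and for 69 of the 137 it rests on a single captured molecule. The members just inside it are the 69 nuclei with 1 UMI and those just outside it are the 199 with none. A nucleus with none can still have held CCL2 transcripts that were not captured. These counts chose the members, so they are a description.

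The share of astrocyte nuclei with CCL2 differed between retinas. It was 43.6% in animal 7248 (98 of 225, 95% exact binomial interval 37.0 to 50.3%) and 35.1% in animal 7249 (39 of 111, 26.3 to 44.8%). In Vehicle week 4 it was 0 of 112 nuclei in animal 7250, where a count of 0 allows a share of up to 2.68%, and 3.90% in animal 7251 (8 of 205, 1.70 to 7.54%). At week 2 the AAV-injected eyes stood at 3.08% (4 of 130) and 10.5% (6 of 57), and the vehicle-injected eyes at 1.76% (4 of 227) and 0.515% (1 of 194). Both AAV week 4 values lay above all 6 others, and the intervals of the AAV week 4 retinas did not meet those of the vehicle retinas. These intervals cover counting error only.

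Depth differed too, with a median of 10066 and 10721 UMIs per astrocyte nucleus in the AAV week 4 retinas and between 4571 and 5754 in the other 6. Thinned to 2000 UMIs per nucleus, the expected share with CCL2 was 14.6% and 10.9% in AAV week 4, 1.24% and 4.16% in AAV week 2, and at most 1.43% in the vehicle retinas. Rod nuclei, which should lack the gene, had CCL2 in 0.678% and 0.665% of nuclei in the same AAV week 4 retinas, at median depths of 2774 and 3009 UMIs, and in 0.446% and 0.415% after thinning. Müller glia, gated by RLBP1, had it in 5.32% (34 of 639) and 4.91% (13 of 265), and immune nuclei, gated by PTPRC, in 5.58% (13 of 233) and 8.29% (18 of 217). Among the gates compared, the astrocyte share was the highest in both AAV week 4 retinas, before and after thinning. The immune gate did not separate microglia and macrophages from lymphocytes, so their own shares are not given by it. In the AAV week 2 eyes the immune gate had CCL2 in 1 of 12 and 2 of 6 nuclei, a higher share than that of the astrocytes.

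**Figure D1:**
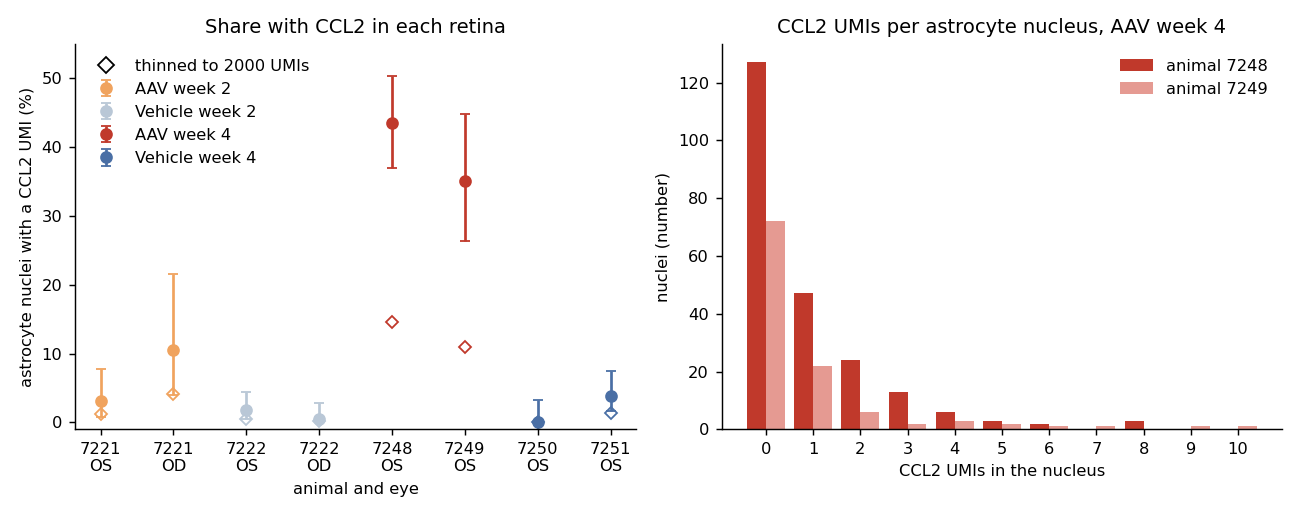
Left, the percentage of gated astrocyte nuclei with at least 1 CCL2 UMI in each of the 8 retinas (circles with 95% exact binomial intervals) and the percentage expected with every nucleus thinned to 2000 UMIs (open diamonds). Right, the number of AAV week 4 astrocyte nuclei by CCL2 UMIs; the AAV week 4 retinas stand at 43.6% and 35.1%, and most positive nuclei hold 1 or 2 UMIs.

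Between the 4 lanes of a retina the share ran from 20 of 55 nuclei to 29 of 58 in animal 7248. In animal 7249 it was 6 of 24, 6 of 22 and 9 of 34 nuclei in 3 of the lanes and 18 of 31 (58.1%) in the other, which thus gave 18 of the 39 positive nuclei. The part of that lane in the values below was not tested.

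The label of the nuclei was checked against further markers. SLC1A3, the glutamate transporter of astroglia, had between 531 and 1242 UMIs in the 4 sums compared below, VIM between 157 and 365, SOX9 between 19 and 52 and SLC1A2 between 25 and 152. AQP4, the water channel of astrocyte end-feet, was low at 7 and 15 UMIs in the positive and negative nuclei of animal 7248 and 0 and 8 in those of animal 7249. GJA1 had 2 to 10 UMIs a sum and ALDH1L1 1 to 8, while SLC14A1 was at 0 in all 4. Of the microglia and macrophage markers, 10 of 11 had a UMI somewhere, with a summed level of 15.3 to 41.0 CPM (UMIs of the gene or list per 1000000 UMIs summed) and TYROBP at 0. PTPRC, like RLBP1 among the Müller markers and TRPM1 and GRM6 among the bipolar markers, was kept low by the rule itself and is no check of the label. The microglia and macrophage sum was higher in positive than in negative nuclei of both retinas, at 33.9 against 24.4 CPM in animal 7248 and 41.0 against 15.3 in animal 7249. MRC1, a macrophage receptor, had 6 against 4 and 8 against 0 UMIs, and CD163 had 6 against 1 and 1 against 0, while SPI1 had 4 against 6 and 0 against 0, C1QB 1 against 2 and 0 against 0, and P2RY12 3 against 3 and 3 against 4. Any of the markers was found in 12 positive and 16 negative nuclei of animal 7248 and in 9 and 6 of animal 7249. Their part in the results below was not tested. Rod markers summed to 343 to 1098 CPM and cone markers to 7.65 to 157, so that part of the nuclei carried transcripts of photoreceptors. Müller markers summed to 1198 to 1395 CPM, with SFRP2 at 303 to 656 UMIs a sum, and bipolar markers to 765 to 822 CPM. SLC1A3, VIM and SOX9 were not compared with their levels in Müller nuclei, so their counts do not tell astrocytes from Müller glia.

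For the comparison, positive and negative nuclei of a retina were matched on total UMIs, since positive nuclei were deeper (medians of 11254 against 9413 UMIs in animal 7248 and 12095 against 9899.5 in animal 7249). Within bins of 0.25 on the log2 scale, equal numbers were drawn, which kept 110 of the 137 positive and 110 of the 199 negative nuclei, 77 of each kind in animal 7248 and 33 of each in animal 7249. After matching the medians were 10522 and 9972 UMIs in animal 7248 and 11312 and 11278 in animal 7249. Counts were summed per retina and kind, which gave 4 sums of 795552 and 779432 UMIs in animal 7248 and 390640 and 392140 in animal 7249.

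The matched sums asked which other genes go with CCL2 in an astrocyte of an AAV-injected retina. IRF1, IDO1, GBP1 and RSAD2, which interferons induce, and BIRC2, BIRC3 and MAP3K8 of NF-kB signaling were higher in the CCL2-positive nuclei, while STRIP2, PKP2 and PTPRO were lower. Among them, MAP3K8 and PKP2 were not called with a second random draw of nuclei. MAP3K8 and PTPRO were not called once nuclei with photoreceptor transcripts were left out. With edgeR's quasi-likelihood test, the retina as a block and Benjamini-Hochberg adjustment over the 7746 genes tested, 47 genes were higher (0.607%) and 18 lower (0.232%) at 0.05. All 18 lower genes and 45 of the 47 higher genes had the same direction in both retinas, which a fit of 2 pairs favors by its construction.

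These calls depend on the fit and should be read with the values per retina. The SE printed with a fold change was computed from the fold change and the statistic of the same test. It thus rests on a spread shared over genes and does not measure the spread between the 2 retinas. With 2 pairs of sums only 1 residual degree of freedom is left, edgeR then gave every gene the spread of the common trend, DESeq2's Wald test called 2 higher genes and 0 lower (50 genes at an unadjusted p under 0.05), and without the retina as a block 0 genes passed in edgeR (267 at an unadjusted p under 0.05). A gate in which RLBP1 and the other markers had to be at 0 left 3 higher genes and 0 lower. With a second random draw of the matched nuclei, 33 of the 65 calls were made again. Among the named genes, MX2, MAP3K8, OSMR, SPP1, IER3, ADAMTS3, DSCAM, ARR3, VSTM4, TBX3, PKP2, PPARGC1A, PPM1H, TTC39C and THSD4 kept their direction in that draw but did not pass.

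**Figure D2:**
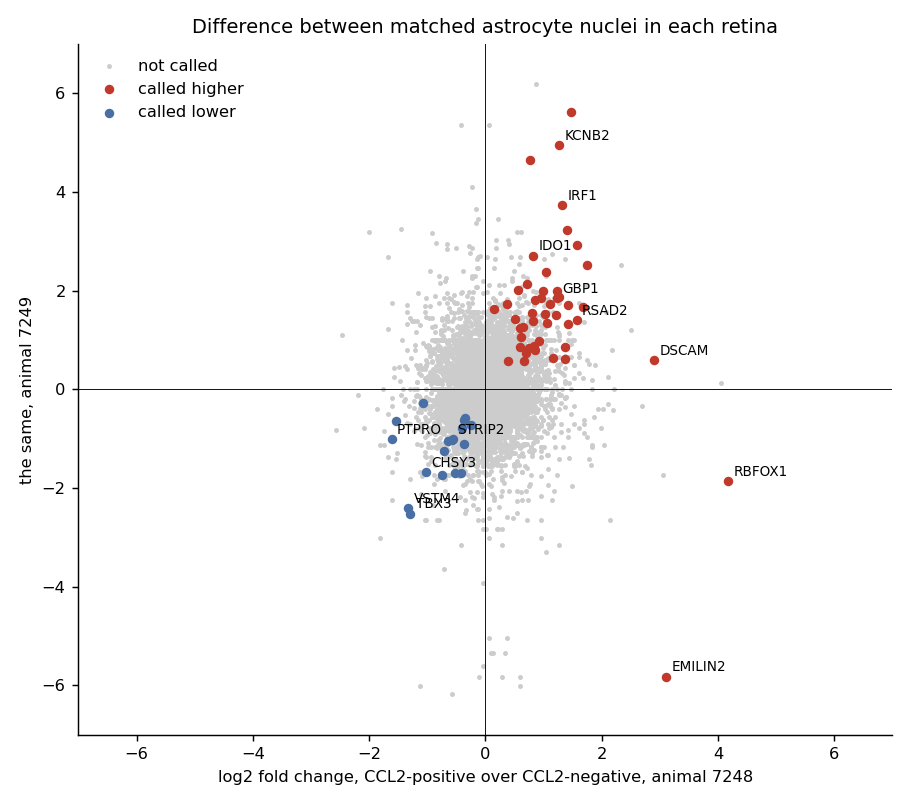
Each point is a gene, with its log2 fold change of CCL2-positive over matched CCL2-negative astrocyte nuclei in animal 7248 on the x axis and in animal 7249 on the y axis. Red and blue points are the 47 higher and 18 lower genes; RBFOX1 and EMILIN2 are the 2 called genes on opposite sides of 0 in the 2 retinas.

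GBP1, a guanylate-binding protein that is among the genes most strongly induced by interferon-gamma, was the steadiest of the named genes. GBP1 (chr4:127425699-127442132) stood at 351 CPM in the positive and 149 in the negative nuclei of animal 7248, and at 602 and 168 in animal 7249. GBP1 had a log2 fold change of 1.51 (SE 0.18, edgeR adjusted p = 5.36e-13). It was read in 41 against 33 of 77 nuclei and in 24 against 18 of 33, a smaller ratio than that of the UMIs. The call held in 12 of the 13 alternative fits, with adjusted p from 3.72e-22 to 1.

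IDO1, the enzyme that opens the breakdown of tryptophan to kynurenine, differed more in the number of nuclei. IDO1 (chr17:9245283-9260140) had 209 CPM in positive and 117 in negative nuclei of animal 7248, and 596 and 91.8 in animal 7249. A UMI was found in 20 against 10 nuclei and in 16 against 2. The log2 fold change was 1.67 (SE 0.20, edgeR adjusted p = 5.36e-13), 0.83 in animal 7248 and 2.70 in animal 7249, and it passed in 10 of the 13 alternatives.

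IRF1 (chr2:134776122-134783646), the transcription factor induced by interferon-gamma, had 39.0 and 15.4 CPM in the positive and negative nuclei of animal 7248 and 105 and 7.65 in animal 7249. These are 31 against 12 and 41 against 3 UMIs, in 21 against 10 and 11 against 3 nuclei, and 1 nucleus held 26.4% of the UMIs in positive nuclei. Its log2 fold change of 2.24 (SE 0.41, edgeR adjusted p = 4.39e-05) was the second largest among named genes, after ABTB2, and passed in 7 of 13 alternatives. Per retina it was 1.32 in animal 7248 and 3.73 in animal 7249.

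WARS1, the tryptophanyl-tRNA synthetase, and SAMHD1, which breaks down the nucleotides that viral reverse transcription needs, stand outside the rule for named genes and were chosen after their values were seen. WARS1 had 248 against 114 CPM in animal 7248 and 497 against 150 in animal 7249 (log2 fold change 1.40, SE 0.20, edgeR adjusted p = 2.00e-09). SAMHD1 had 341 against 150 and 502 against 324 (0.91, SE 0.18, edgeR adjusted p = 1.70e-04). Each passed in 9 of the 13 alternatives.

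RSAD2 and MX2 are antiviral genes of the interferon list. RSAD2, or viperin, an enzyme that makes a chain-terminating nucleotide, had 57.8 against 19.2 CPM in animal 7248 and 451 against 171 in animal 7249. The negative nuclei of animal 7249 thus stood above the positive nuclei of animal 7248, while the difference within a retina was close in both (log2 1.57 and 1.41, jointly 1.45, SE 0.25, edgeR adjusted p = 4.16e-06, passing in 10 of 13 alternatives). RSAD2 was not detected in more positive than negative nuclei in both retinas, and 1 nucleus held 14.9% of its UMIs in positive nuclei. MX2, a dynamin-like GTPase that blocks viral entry into the nucleus, had 299 against 198 and 696 against 385 (0.73, SE 0.17, edgeR adjusted p = 0.00436, passing in 7 alternatives).

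The whole list of interferon-stimulated genes had 44 members tested, of which 38 had a positive log2 fold change, 30 of them in both retinas, with a median of 0.37. Over all tested genes the median was -0.00, 49.5% were positive and 27.5% were positive in both retinas. Only 4 members passed, GBP1, IRF1, RSAD2 and MX2, all higher, where 0.607% of all tested genes were called higher. IFIT3 (1.20, SE 0.39) and IFIT2 (1.22, SE 0.41), whose products bind viral RNA, missed it with edgeR adjusted p-values of 0.156 and 0.186. ISG15 (0.24), MX1 (0.16), IFI44L (0.17), HERC6 (-0.02) and XAF1 (0.00) lay near 0, and IRF9 (-0.53), LGALS3BP (-0.48) and DTX3L (-0.40) were negative without passing.

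**Figure D3:**
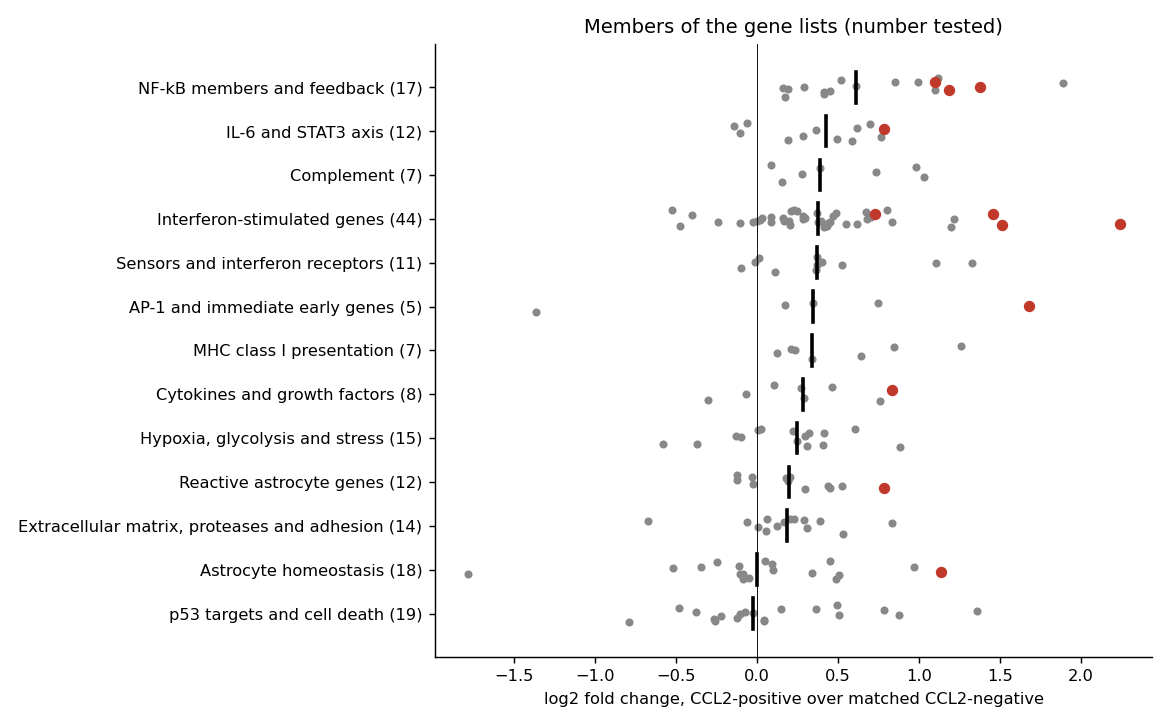
Each point is a tested gene of 1 of 13 lists, placed by its log2 fold change of CCL2-positive over matched CCL2-negative astrocyte nuclei, with red points for the members that passed. Black bars are list medians, from 0.61 for NF-kB down to -0.03 for p53 targets and cell death; the spread along the vertical axis within a list is for display.

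In the NF-kB list, 17 of the 28 members in the files had the counts for a test. All 17 had a positive log2 fold change, 16 of them in both retinas, with a median of 0.61. Of all tested genes, 27.5% were positive in both retinas. In both retinas taken alone the median was 0.69 and 0.67. The filter on low counts can admit a gene through its counts in positive nuclei alone or in negative nuclei alone. Low-count members that are higher in positive nuclei can thus enter a list through those nuclei. Over all genes that passed this filter, 49.5% were positive. Without that filter the NF-kB median was 0.56. Of the 17 tested members, 3 passed, BIRC2, BIRC3 and MAP3K8, against 0.607% called higher over all tested genes.

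BIRC2 and BIRC3 encode the ubiquitin ligases cIAP1 and cIAP2 of the TNF receptor complex, and BIRC3 is itself an NF-kB target. BIRC2 had 153 against 103 CPM in animal 7248 and 205 against 51.0 in animal 7249 (log2 fold change 1.10, SE 0.24, edgeR adjusted p = 0.00135). BIRC3 had 60.3 against 30.8 and 138 against 38.3 (1.37, SE 0.32, edgeR adjusted p = 0.00368). The calls held in 8 and 7 of the 13 alternatives.

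MAP3K8, the kinase that is released from NFKB1 to start the ERK cascade, had 91.8 against 43.6 CPM and 136 against 53.6 (log2 fold change 1.18, SE 0.28, edgeR adjusted p = 0.0054), and passed in 5 of the 13 alternatives. RELB, the partner subunit of the non-canonical pathway, had 22 against 5 and 9 against 3 UMIs and a log2 fold change of 1.89 (SE 0.62) that did not pass (edgeR adjusted p = 0.169). TNFAIP2 (1.10, SE 0.37), IRAK2 (1.12, SE 0.45) and the feedback inhibitor TNFAIP3 (0.99, SE 0.46) likewise did not pass, and NFKB1 (0.19) and TRAF3 (0.16) were close to 0.

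In the IL-6 and STAT3 list, 9 of 12 tested members were positive with a median of 0.43, and 8 were positive in both retinas. Of all tested genes, 49.5% were positive, 27.5% were positive in both and 0.607% were called higher. OSMR, the oncostatin M receptor, passed, with 231 against 134 UMIs in animal 7248 and 71 against 40 in animal 7249 (log2 fold change 0.78, SE 0.21, edgeR adjusted p = 0.0287). It held in 2 of the 13 alternatives. STAT3 (0.59, SE 0.20) and LIFR (0.77, SE 0.32) did not pass.

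SPP1, osteopontin, was the only called member of 8 tested cytokines and growth factors, of which 6 were positive and 5 positive in both retinas. It had 343 against 226 CPM in animal 7248 and 246 against 105 in animal 7249 (log2 fold change 0.83, SE 0.20, edgeR adjusted p = 0.00543), in 62 against 44 and in 19 against 21 nuclei, and passed in 5 of the 13 alternatives. FGF2, with the most counts of the list, stood at 0.27 (SE 0.13). IER3, an early response gene that NF-kB induces, was the only call among 5 tested genes of the AP-1 list, with 30 against 9 and 16 against 5 UMIs (1.68, SE 0.46, edgeR adjusted p = 0.0352, passing in 3 of the 13 alternatives). FOS was at 0.75 (SE 0.36) and JUN at 0.35 (SE 0.41). Of the 5 tested AP-1 genes, 4 were positive, and 4 were so in both retinas. Over all tested genes, 0.607% were called higher, 49.5% were positive and 27.5% were positive in both.

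No member of the complement, MHC class I or sensor lists passed in edgeR, although 7 of 7, 7 of 7 and 9 of 11 tested members were positive. Those positive in both retinas were 7, 6 and 8. Of all tested genes, 49.5% were positive and 27.5% were positive in both retinas. The list medians were 0.39, 0.34 and 0.37. By retina, animal 7248 first, these medians were 0.46 and 0.34 for complement, 0.41 and 0.19 for MHC class I, and 0.06 and 0.73 for the sensors. C3, the central complement component, had 21 against 11 and 19 against 9 UMIs (log2 fold change 0.98, SE 0.43, edgeR adjusted p = 0.517), and CLU, the complement inhibitor clusterin, 605 against 424 and 263 against 218 (0.39, SE 0.15). B2M, the light chain of MHC class I, stood at 0.64 (SE 0.27), with 0.98 in animal 7248 and 0.19 in animal 7249, TAP1 at 0.24 (SE 0.28), the interleukin-1 receptor IL1R1 at 0.53 (SE 0.16, edgeR adjusted p = 0.0984) and the DNA sensor CGAS at 1.33 (SE 0.47, edgeR adjusted p = 0.248).

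Other chemokines were hardly read. Of 18 listed by symbol, 7 had no UMI in the 4 sums and none reached the counts for a test. CXCL10, the interferon-induced ligand of CXCR3, had 3 UMIs in positive and 9 in negative nuclei of animal 7248 and 32 and 0 in animal 7249, where 4 positive nuclei held them. CXCL9 had 0 and 22 UMIs in animal 7248, in 3 negative nuclei, and 1 and 1 in animal 7249. CXCL10 thus went opposite ways in the 2 retinas and CXCL9 was level in animal 7249, with few nuclei behind any of these values.

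Among the remaining named risers were genes that belong to no list. ABTB2, an ankyrin-repeat and BTB-domain protein, had 22 against 8 and 38 against 4 UMIs (log2 fold change 2.27, SE 0.45, edgeR adjusted p = 2.12e-04), and 1 nucleus held 31.7% of its UMIs in positive nuclei. PELI2, a ubiquitin ligase of the Toll-like and interleukin-1 receptor pathways, had 69 against 25 and 49 against 15 (1.55, SE 0.30, edgeR adjusted p = 1.96e-04). PCOLCE2, an enhancer of collagen processing, had 34 against 16 and 42 against 8 (1.64, SE 0.37, edgeR adjusted p = 0.00254). GPC5, a cell-surface proteoglycan and the only called member of the homeostasis list, was higher as well (1.14, SE 0.32, edgeR adjusted p = 0.0456), in 19 against 11 and 8 against 10 nuclei. It was at 0.05 with the stricter gate, 0.65 with week 2 added and 3.02 with CCL2 at 2 UMIs or more, and passed in 6 of the 13 alternatives. CD47, the cell-surface signal that holds back phagocytes, and PPA1, the cytosolic pyrophosphatase, were chosen after their values were seen, at log2 fold changes of 0.94 and 1.48. Of genes known by identifier only, ENSSSCG00000033089 had 251 against 104 and 1242 against 342 CPM (1.60, SE 0.17, edgeR adjusted p = 1.29e-16).

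KCNB2, ADAMTS3, DSCAM, ZNF804B and ARR3 completed the 12 largest rises, and the UMIs of KCNB2 and ADAMTS3 lay largely in nuclei with photoreceptor transcripts. KCNB2 is a potassium channel, and ARR3 is cone arrestin, one of the cone markers that define these nuclei. Nuclei with at least 5 UMIs of rod or of cone markers were about as many among positive as among negative matched nuclei (25 and 26 in animal 7248, 3 and 4 in animal 7249), but they held 238 of the 250 KCNB2 UMIs in the positive nuclei of animal 7248, 95 of 101 in its negative nuclei, and 91 of 95 in the positive nuclei of animal 7249. For DSCAM they held 33 of 47 and 0 of 12 in the positive nuclei of the 2 animals, for ZNF804B 28 of 46 and 2 of 6, and for ADAMTS3 23 of 28 and 8 of 12. A single nucleus held 48.1% of the ZNF804B UMIs in positive nuclei. Cone markers as a list summed to 157 against 88.5 CPM in animal 7248 and 146 against 7.65 in animal 7249, whereas rod markers summed to 652 against 1098 and 343 against 357. Without these nuclei, matched anew, KCNB2, ADAMTS3 and ZNF804B no longer reached the counts for a test, and DSCAM was at 1.76 with an edgeR adjusted p of 0.197.

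In that fit without photoreceptor-marker nuclei, an alternative added after the data were seen, 45 genes were higher (0.676%) and 16 lower (0.24%) of 6654, and 29 of the 65 calls were shared. GBP1 (log2 fold change 2.00), IDO1 (1.91), WARS1 (1.49), RSAD2 (1.54), IRF1 (1.73), SAMHD1 (1.66), BIRC2 (0.91), BIRC3 (1.48) and MX2 (0.76) passed again in edgeR. MAP3K8 (0.81), OSMR (0.59), SPP1 (0.41), IER3 (1.49), ABTB2 (1.36), PELI2 (0.83) and PCOLCE2 (0.92) no longer did, with adjusted p from 0.187 to 0.542, while IL1R1 (0.59) and FN1 (0.90) now passed. Of the lower genes named below, STRIP2 (-0.70), PKP2 (-0.87) and CHSY3 (-1.76) passed and the other 9 did not. The NF-kB median was 0.62, with 12 of 14 tested members positive, and that of the interferon-stimulated genes 0.41, with 37 of 43 positive. RBFOX1 and EMILIN2, called higher with all nuclei, went opposite ways in the 2 retinas (log2 4.17 and -1.86 for RBFOX1, 3.11 and -5.83 for EMILIN2, where 1 nucleus held 90.3% of the UMIs in positive nuclei).

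**Figure D4:**
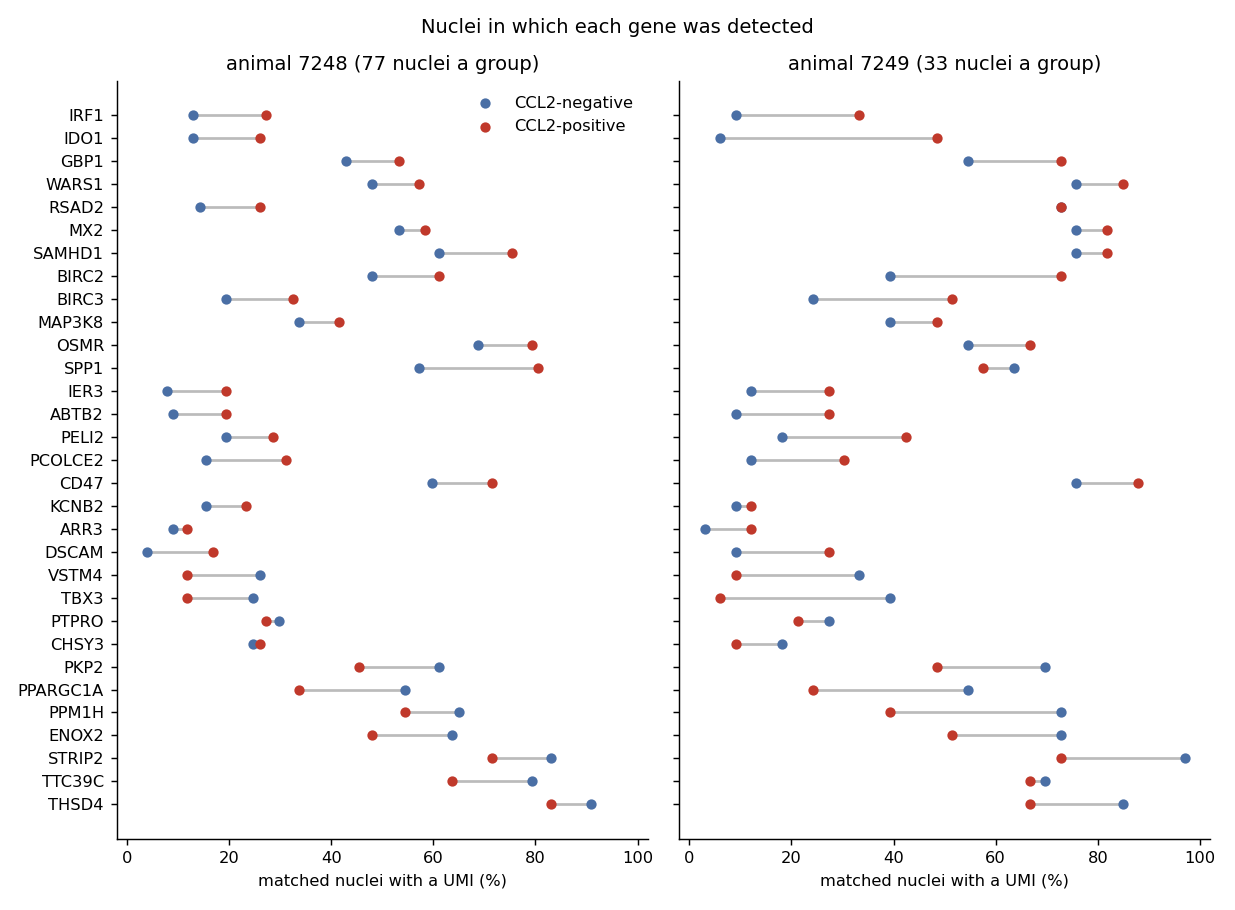
For each gene on the y axis, the percentage of matched astrocyte nuclei with at least 1 UMI, in CCL2-positive (red) and CCL2-negative (blue) nuclei, of animal 7248 on the left and animal 7249 on the right. IDO1 goes from 10 to 20 of 77 nuclei and from 2 to 16 of 33, while PPARGC1A goes from 42 to 26 and from 18 to 8.

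None of the lower genes belonged to a list. Since 0.232% of all 7746 tested genes were called lower, hardly any were to be looked for among the list members. STRIP2, a subunit of the STRIPAK phosphatase complex, had 253 CPM in positive and 373 in negative nuclei of animal 7248 and 271 and 553 in animal 7249 (log2 fold change -0.78, SE 0.17, edgeR adjusted p = 0.00198). It passed in 8 of the 13 alternatives, the most of the lower named genes. PKP2, a plakophilin of cell junctions, had 86.7 against 123 and 89.6 against 293 (-1.06, SE 0.23, edgeR adjusted p = 0.00152, 6 alternatives). PTPRO, a receptor tyrosine phosphatase, had 67.9 against 207 and 58.9 against 120 (-1.40, SE 0.25, edgeR adjusted p = 1.86e-05), but was at -0.23 without the photoreceptor-marker nuclei.

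VSTM4 and TBX3 had the largest falls and few counts. VSTM4, a membrane protein of the immunoglobulin family, had 11 against 27 and 4 against 22 UMIs (log2 fold change -1.73, SE 0.45, edgeR adjusted p = 0.0164), and TBX3, a T-box transcription factor, 10 against 24 and 3 against 18 (-1.71, SE 0.48, edgeR adjusted p = 0.0432). PPARGC1A, the coactivator of mitochondrial biogenesis, had 52 against 85 and 10 against 34 UMIs (-1.04, SE 0.29, edgeR adjusted p = 0.0374). VSTM4 passed in 2 of the 13 alternatives and TBX3 and PPARGC1A in 1 each. CHSY3, a chondroitin synthase, fell by 1.11 on the log2 scale, with 58 against 115 and 3 against 10 UMIs, and a single nucleus held 33.6% of its UMIs in negative nuclei. PPM1H, ENOX2, TTC39C, THSD4 and TMEM108 fell by between 0.69 and 0.87 in the joint fit, but unevenly in the 2 retinas. The log2 fold change of PPM1H was -0.41 in animal 7248 and -1.685 in animal 7249. In the same order it was -0.65 and -1.04 for ENOX2, -0.56 and -1.01 for TTC39C, and -0.37 and -1.10 for THSD4. TMEM108 fell more in animal 7248, at -1.07 against -0.28. With CCL2 at 2 UMIs or more, ENOX2 was at -0.05.

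Lists that describe the state of an astrocyte more broadly held 1 called gene each for homeostasis and reactive astrocytes and none for the other 3 in edgeR. Of 18 tested homeostasis genes 9 were positive, with a median of -0.00. The retinas went opposite ways, with medians of 0.19 in animal 7248 and -0.32 in animal 7249 and 5 members positive in both. The transporter SLC1A3 was at 0.05 (SE 0.12) and the bicarbonate transporter SLC4A4 at -0.25 (SE 0.13). Among 12 reactive astrocyte genes 8 were positive, with a median of 0.20 (0.01 in animal 7248 and 0.54 in animal 7249, 5 members positive in both), and OSMR alone passed; VIM was at 0.30 (SE 0.17), CD44 at 0.18 (SE 0.17) and CP at -0.13 (SE 0.15). GFAP, which the rule used, was level, at 870 against 901 and 886 against 844 CPM. In the p53 and cell death list 9 of 19 were positive (median -0.03), with the p53 target CDKN1A at -0.79 (SE 0.48) and MDM2 at 0.64 in animal 7248 and -1.36 in animal 7249. The hypoxia list (11 of 15 positive, median 0.24) and the matrix list (12 of 14, median 0.18) had no call in edgeR. Only 7 of the 15 and 6 of the 14 were positive in both retinas. Of all tested genes, 49.5% were positive, 27.5% were positive in both retinas and 0.607% were called higher. The matrix median was -0.03 with bins of 0.5 on the log2 scale, and FN1, fibronectin, stood at 0.39 (SE 0.17).

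The same genes were followed over the number of CCL2 UMIs and against the vehicle retinas, as a description, since CCL2 counts chose the nuclei and deeper nuclei have more of them. All gated nuclei enter these values. GBP1 had 9.56 and 4.19 CPM in CCL2-negative astrocyte nuclei of Vehicle week 4, then 146 and 145 in those of AAV week 4, 229 and 458 in nuclei with 1 CCL2 UMI, 509 and 622 with 2, and 559 and 669 with 3 or more (animal 7248 first). MAP3K8 went from 19.1 and 24.1 in vehicle to 49.4 and 53.2, 89.7 and 91.0, 103 and 152, and 157 and 137. IDO1 was read in 0 and 1.05 CPM in vehicle and in 106 and 58.5 in CCL2-negative AAV nuclei, then in 169 and 334 with 1 CCL2 UMI, 254 and 912 with 2, and 328 and 525 with 3 or more. STRIP2 went the other way, from 2134 and 1272 in vehicle to 395 and 598 in CCL2-negative AAV nuclei and 252 and 309 at 3 or more CCL2 UMIs. For IDO1, MAP3K8, IRF1 and WARS1 the levels over the 3 classes of positive nuclei had no common order in the 2 retinas.

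**Figure D5:**
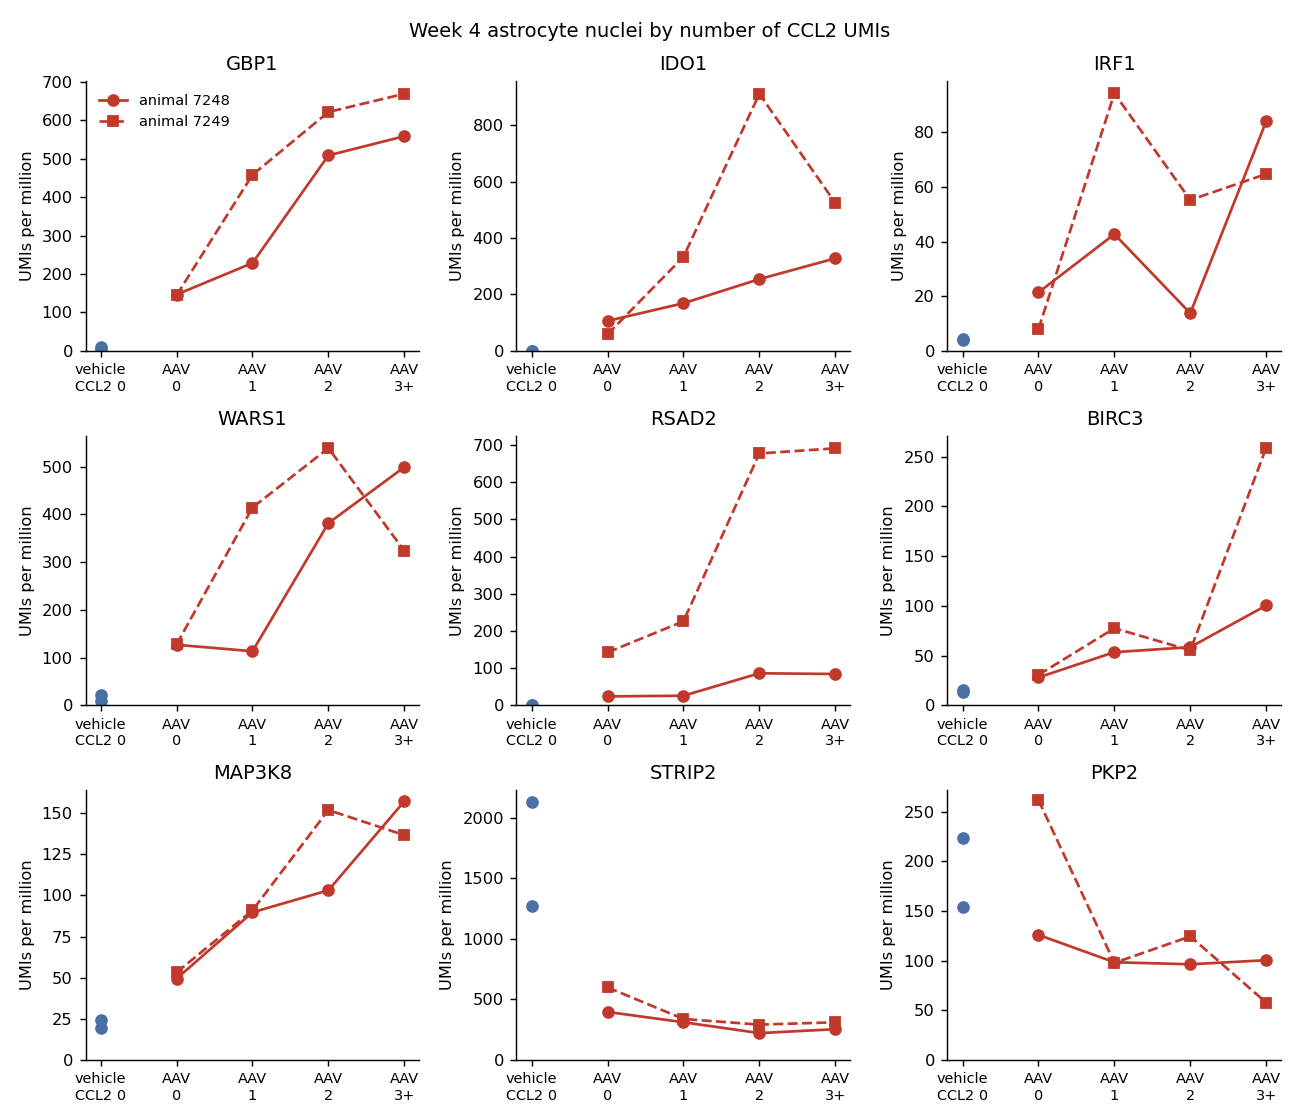
CPM of 9 genes in week 4 astrocyte nuclei without a CCL2 UMI in the vehicle retinas (blue, 1 point a retina) and in AAV nuclei with 0, 1, 2 or 3 and more CCL2 UMIs (red, 1 line a retina). GBP1 climbs from 146 and 145 at 0 UMIs to 559 and 669 at 3 or more, and STRIP2 is lower in every AAV class than in vehicle; the class with 2 UMIs holds 24 and 6 nuclei.

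CCL2-negative nuclei were themselves far from the controls. A count of 0 does not show that a nucleus lacked CCL2. In the AAV week 4 retinas, thinning to 2000 UMIs took the astrocyte share with CCL2 from 43.6% and 35.1% to 14.6% and 10.9%. Between CCL2-negative astrocyte nuclei of AAV week 4 and those of Vehicle week 4, 2 retinas each, edgeR called 434 genes higher (4.65%) and 370 lower (3.96%) of 9342. GBP1 was higher by 4.59 on the log2 scale (edgeR adjusted p = 3.28e-04), WARS1 by 2.99 (0.00114), OSMR by 1.69 (0.0105), SPP1 by 2.01 (0.0146) and MAP3K8 by 1.26 (0.0392). BIRC2 (0.74, edgeR adjusted p = 0.174), BIRC3 (1.03, 0.132) and CD47 (0.16, 0.783) did not pass there. STRIP2 fell by 1.72 (edgeR adjusted p = 0.00818), whereas PKP2 (0.10), THSD4 (0.37) and VSTM4 (-0.14) did not pass. This comparison uses the CCL2-negative nuclei that also serve above, the vehicle nuclei were shallower, and batch and group cannot be told apart in it.

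The transgene was compared last. EGFP was found in 16 of 77 positive matched nuclei of animal 7248 (20.8%, 95% exact interval 12.4 to 31.5%) against 9 of 77 negative ones (11.7%, 5.49 to 21.0%). In animal 7249 it was found in 2 of 33 (6.06%, 0.743 to 20.2%) against 3 of 33 (9.09%, 1.92 to 24.3%). The intervals overlap in both retinas and the directions are opposite, with a log2 fold change of 0.53 (SE 0.49, edgeR adjusted p = 0.908), so no difference in EGFP was detectable at this depth.

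At week 2 the AAV-injected eyes of animal 7221 had 4 and 6 CCL2-positive astrocyte nuclei, matched with as many negative ones, and sums of 23855 to 45009 UMIs. Of 652 genes that could be tested, edgeR called 0 higher and 1 lower, PDZRN4 (37 at an unadjusted p under 0.05). Of the 65 genes called at week 4, 13 reached the counts for a test at week 2, 6 of them with the same direction and 0 called. GBP1 had 3 against 0 and 8 against 8 UMIs, RSAD2 2 against 0 and 10 against 5, and IDO1 had none. With both eyes from 1 animal, week 2 gives no spread between animals.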

How the data were processed

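Nuclear RNA of 8 retinas was sequenced in droplets. The authors aligned reads to Sscrofa11.1 (Ensembl release 113) with EGFP added, and deposited UMI counts per gene and nucleus from Cell Ranger 8.0.0, not normalized, as filtered barcodes of 4 lanes per retina without cell types. The 4 lanes were joined here. The paper's mitochondrial filter, clustering and integration are not in these counts, and no doublets were removed. The files list 35683 genes, 18049 of them without a symbol, of which 80 were named from a table.

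The members, the gene lists and the rule were chosen with earlier results of these data known. CNGB1, foreseen for the rod gate, is not listed by symbol and was left out of it. Positive and negative nuclei were matched within each retina (bins of 0.25 on the log2 scale of total UMIs, seed 1) and summed. The sums were compared with edgeR 4.0.16 in R 4.3.3 (filterByExpr, TMM, quasi-likelihood test, retina as block, Benjamini-Hochberg, threshold 0.05), with the adjustment made without the 9 genes that define the nuclei. A log2 fold change is positive over negative. CPM are UMIs per 1000000 UMIs summed. An exact sign-flip test of 2 pairs cannot go below p = 0.5, so p-values rest on a spread shared over genes and cover 2 animals. On simulated sums for this comparison (7750 genes, 200 changed), 55% of 2-fold and 87% of 4-fold changes were recovered, and 7.19% of calls were of unchanged genes. Every gene was simulated with the same common spread, as the fit assumes. These rates thus leave out spread particular to a gene, such as UMIs held by a single nucleus, and are no error rate for the calls. DESeq2 1.42.0 was an alternative. CCL2-negative AAV week 4 nuclei were compared with vehicle week 4 nuclei without block.

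Named genes were the 12 largest rises and falls with a symbol that passed with the same direction in both retinas, every list member that passed, for other lists the 2 members with the most counts, the genes of the rule and EGFP. Other genes named, such as list members given as examples, were chosen after their values were seen. Shares have 95% exact binomial intervals, and a count of 0 allows 3 counts. Coordinates and sequences are from RefSeq, Sscrofa11.1. Alternatives covered matching, gate, depth, mitochondrial share, scaling, filter, model and single retinas.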

Additional observations from a re-analysis of the deposited data

Results flagged for a closer look

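In a fit of both AAV groups, the difference between CCL2-positive and CCL2-negative nuclei changed between weeks for 2 of 4953 genes by the test of the interaction in edgeR. For CAMKMT the week 4 difference exceeded that of week 2 by 4.78 on the log2 scale (SE 1.00, edgeR adjusted p = 0.0464). Its counts were 206 against 197 and 92 against 97 UMIs at week 4, and 1 against 8 and 0 against 21 at week 2. For PDZRN4 the excess was 3.24 (SE 0.64, edgeR adjusted p = 0.0347), with 175 against 132 and 36 against 52 UMIs at week 4, and 3 against 32 and 3 against 24 at week 2. Both genes were near 0 at week 4 (log2 fold changes of -0.01 and 0.05), and the week 2 values rest on 4 and 6 nuclei of each kind from 1 animal.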

How the results depend on the processing

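The 47 higher and 18 lower genes became 91 and 42 without matching on UMIs, 10 and 4 with bins of 0.5, 3 and 0 with the stricter gate, 26 and 6 with nuclei over 0.5% mitochondrial UMIs left out, 2 and 0 with DESeq2's Wald test, 0 and 0 without the replicate block and 8 and 0 with AAV week 2 added. The lower genes alone left the range of 1.5 times with CCL2 at 2 UMIs or more (7) and with the deepest 10% left out (9). Mitochondrial filtering removed 1 nucleus. edgeR's prior degrees of freedom were infinite with all matched nuclei, 14.5 with the wider bins, 30.2 with the mitochondrial limit, 21.1 with week 2 added and 7.18 without the block. They were infinite also with CCL2 at 2 UMIs or more. The cause of the changes was not tested. Counts stayed within 1.5 times with DESeq2's size factors, the second draw and no filter on low counts, where 65, 33 and 51 of the 65 calls were made again. With 1 retina left out, no residual degree of freedom remains, so counts were not run. Values per retina are given above for part of the genes.

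None of the genes named by the rule that had passed reversed, and RBFOX1 and EMILIN2, outside it, had opposite signs in the 2 retinas. Among genes that did not pass, CFI was at -0.021 and ENO1 at -0.033 without matching, ENO1 at -0.064 with bins of 0.5, -0.045 with CCL2 at 2 UMIs or more, -0.031 with week 2 added and between -0.094 and 0.19 over single retinas. CFLAR was at -0.042 with the stricter gate, TNC between -0.098 and 0.65 over single retinas. MDM2 was at 0.18 with the second draw, 0.47 with the stricter gate, 0.0022 without photoreceptor-marker nuclei and between -1.36 and 0.64 over single retinas. HIF1A was at 0.092 without matching, 0.13 with bins of 0.5, 0.14 with the second draw, 0.21 with CCL2 at 2 UMIs or more, 0.11 with the stricter gate, 0.0047 with week 2 added, 0.19 without photoreceptor-marker nuclei and between -0.30 and 0.19 over single retinas. EGFP was at -0.33 with week 2 added and between -0.70 and 0.86 over single retinas. The NF-kB median stayed between 0.50 and 1.13 and that of the interferon-stimulated genes between 0.26 and 0.44. Medians took both signs for homeostasis (-0.32 to 0.20), p53 targets and cell death (-0.14 to 0.27) and matrix (-0.03 to 0.26). They came near 0 for AP-1 (0.01 to 1.11), cytokines (0.07 to 0.87), reactive astrocytes (0.01 to 0.54) and sensors (0.06 to 0.73). Ranges were 0.25 to 0.61 for IL-6 and STAT3, 0.19 to 0.66 for MHC class I, 0.28 to 0.66 for complement and 0.11 to 0.28 for hypoxia.

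Thinning moved the share with CCL2 to 14.6% and 10.9% in AAV week 4 and to 1.43% in animal 7251. At 2 UMIs or more the shares were 22.7% and 15.3% in AAV week 4, 0.769% and 3.51% in AAV week 2, 0% in both eyes of animal 7222 and 0.976% in animal 7251. For CCL2-negative AAV against vehicle nuclei, DESeq2 called 251 and 201 genes and no filter on low counts gave 737 and 667. With each retina left out in turn there were 376 to 499 higher and 327 to 511 lower genes.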
